A study of Homo sapiens with 8 samples.

Results

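The genes described here responded in opposite directions to loss and to gain of EphA2 in RNA-seq of prostate cancer cell lines. A gene belongs when both knockout libraries lay beyond both of their controls, both overexpression libraries lay beyond both of theirs, and the directions were opposite, as for CDH1. The rule was applied to CPM, each gene's count set to a common library total, with totals scaled by TMM, edgeR's correction for composition. It gave 2392 of 22727 genes tested. Of these, 1156 were higher in the knockout and lower in the overexpression, the pattern of CDH1, and 1236 were lower in the knockout and higher in the overexpression, the pattern of EPHA2 itself. The same libraries chose the genes, so their values below describe them and do not test them.

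The study holds 8 libraries in 4 groups of 2. PC3 EphA2 KO libraries came from PC3 cells infected with a lentivirus carrying Cas9 and a guide against EphA2, and PC3 control libraries from PC3 cells given the same kind of virus with a non-targeting guide, both 72 h after infection. DU145 EphA2 OE libraries came from DU145 cells transfected with an EphA2 plasmid, and DU145 control libraries from DU145 cells transfected with a control plasmid, both 48 h after transfection. Both are human lines from metastatic prostate carcinoma and carried no other labelled genotype. Editing was checked by sequencing, per the labels, which give no edited share and no selection or cloning, so the knockout libraries may hold unedited cells. Nothing says that replicates were separate cultures, so p-values measure only the spread between these libraries. Loss and gain differ in line, medium, delivery and time as well as in EphA2, and these cannot be told apart.

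EphA2 is a receptor tyrosine kinase that binds ephrin-A ligands on neighbouring cells. With ligand it signals as a kinase and tends to restrain ERK and AKT, and without ligand it can be phosphorylated by AKT, RSK or PKA and is linked to migration. E-cadherin, the product of CDH1, holds epithelial cells together at adherens junctions, is bound to actin through catenins, and has been linked to the placing of EphA2 at cell contacts.

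Libraries held 57571919 to 60951530 counts, and the replicates of each group differed by more than sampling noise. The count table names its controls by abbreviations, and which belongs to which line is a reading by convention, so the main counts are also given with the controls exchanged between the lines. Measured levels bore on this reading in both directions. Of 25 keratin and cornified envelope genes tested, 16 were lower in every library read as PC3 than in every library read as DU145, controls included. KRT6A, a keratin of stratified epithelia, was at 0 in all 4 libraries read as PC3 and at 3.71 to 4.65 CPM in those read as DU145, and the 16 genes reached at most 11.5 CPM. The list's median log2 level, centred on the 8 libraries, was -1.30 and -1.54 in PC3 EphA2 KO, -1.54 and -1.63 in PC3 control, 1.54 and 1.35 in DU145 EphA2 OE and 1.53 and 1.38 in DU145 control. Among 15434 genes at 1 CPM or more, 12 separated the lines as read by more than 1 on the log2 scale, against 1 gene with the controls exchanged. At 20 CPM or more no gene of 8261 did so under either reading, and those separated by any gap numbered 339 as read and 701 with the controls exchanged. Labels were checked against defining genes. KRT8, KRT18 and EPCAM, which mark epithelial cells, were measured in every library, at no less than 72.9 CPM. CTNNA1 encodes alpha-catenin and is deleted in PC3 as the line is known, yet it stood at 434 ± 45.1 CPM in libraries labelled PC3 and at 440 ± 45.4 CPM in libraries labelled DU145 (SD, n = 4 each). On this gene the data go against the PC3 label and the names of the lines are used here as labels only. Of 15 markers of fibroblasts, endothelium and blood, 12 were measured and none of these was at 0 throughout. Their summed level was 54.2 to 54.6 CPM in PC3 EphA2 KO, 36.4 to 51.5 CPM in PC3 control, 61.6 to 62.9 CPM in DU145 EphA2 OE and 73.0 to 76.4 CPM in DU145 control. Nearly all of it was CD68, a lysosomal protein, without which the sum was 1.10 to 1.43 CPM in PC3 EphA2 KO, 1.44 to 1.9 CPM in PC3 control, 2.14 to 2.24 CPM in DU145 EphA2 OE and 2.84 to 2.87 CPM in DU145 control. CD68 was itself higher in the knockout and lower in the overexpression, and its part in other results was not tested.

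Genes with opposite responses outnumbered those with the same response. Opposite genes made up 10.5% of genes tested, and the 1423 genes that moved the same way in both lines made up 6.26%. Within a line, 21.4% of genes tested lay above and 21.6% below their controls in the knockout, and 19.1% above and 18.2% below in the overexpression. Opposite genes split into 5.09% higher in the knockout and lower in the overexpression and 5.44% lower in the knockout and higher in the overexpression. That split depended on the scaling: with library totals in place of TMM it was 875 and 1588 genes, and with the authors' FPKM 886 and 1563. Same-direction genes split into 705 higher in both (3.1%) and 718 lower in both (3.16%). Of all genes apart in both lines, 62.7% were opposite. Genes are not independent of each other, so no p-value is attached to this share.

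With the controls exchanged between the lines, 1751 genes (7.7%) were opposite and 1517 (6.67%) moved the same way, a share of 53.6% opposite. Under both readings, 144 genes (0.634%) were opposite with the same orientation, 63 (0.277%) higher in the knockout and lower in the overexpression and 81 (0.356%) the other way round, while 754 (3.32%) moved the same way under both. These 2 counts cannot be set against each other. An opposite gene must then have the knockout beyond all 4 control libraries on 1 side and the overexpression beyond all 4 on the other, while a same-direction gene needs all altered libraries beyond all 4 controls on the same side.

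The controls of the lines also differed in most opposite genes. DU145 control libraries did not overlap PC3 control libraries in 2053 of the 2392 (85.8%), against 43.9% of all genes tested. Among genes higher in the knockout and lower in the overexpression, 987 of 1156 had DU145 control above PC3 control, against 21.5% of all genes tested. Among genes of the other orientation, 1046 of 1236 had it below, against 22.4%. PC3 EphA2 KO and DU145 EphA2 OE libraries were apart in 1748 (73.1%), against 37.3% of all genes tested. Part of this follows from the rule, which is met more easily by a gene whose controls lie apart.

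Across genes the responses were weakly related. Over 8261 genes with a mean of at least 20 CPM, Pearson's r between the knockout and overexpression log2 fold changes was -0.18 and Spearman's rho -0.20, and over 15434 genes with at least 1 CPM they were -0.01 and -0.15. These coefficients are across genes, which are not independent, and the contrasts share no library. The share of opposite genes among genes apart in both lines was 52.7% at 0.3 CPM or less and 67.9% at 100 to 300 CPM.

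**Figure D1:**
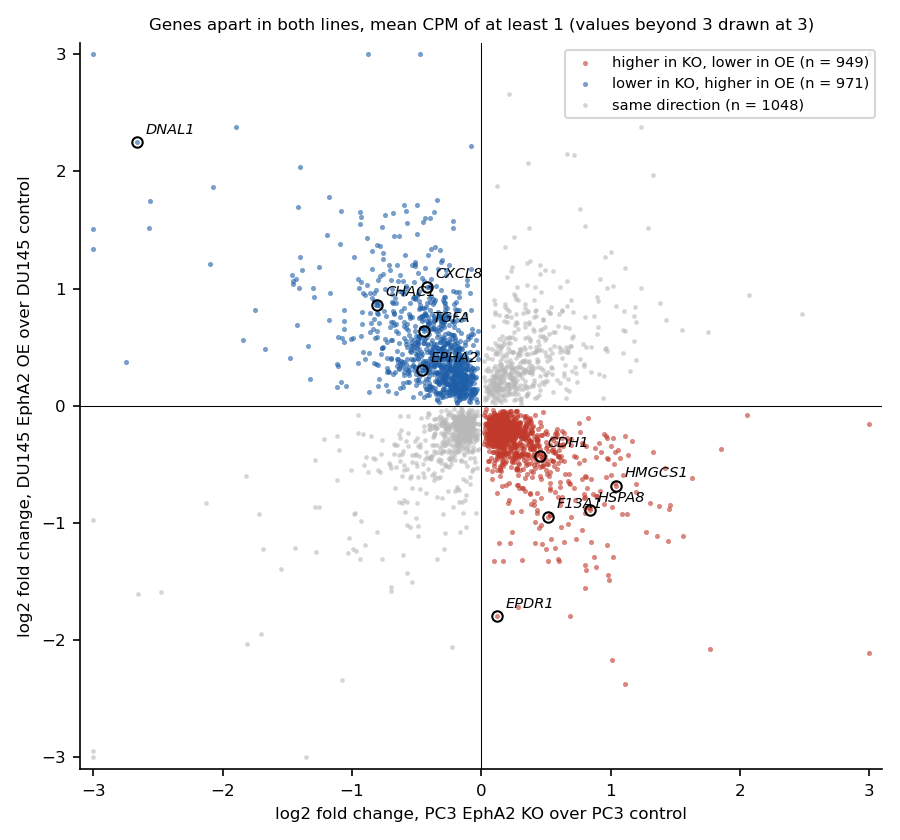
Log2 fold change in the overexpression (y axis) against log2 fold change in the knockout (x axis) for genes apart in both lines with a mean of at least 1 CPM, each point a gene; values beyond 3 are drawn at 3. The 949 genes higher in the knockout and lower in the overexpression fill the lower right, the 971 of the other orientation the upper left, and 1048 same-direction genes the other corners.

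In edgeR's quasi-likelihood fit over all 22727 genes, the difference between the knockout and overexpression responses passed an adjusted p of 0.05 in 7 genes (0.0308%), 4 higher (0.0176%) and 3 lower (0.0132%), and 4 of the 7 were opposite genes. At an unadjusted p below 0.05 there were 1453 of the 2392 opposite genes, against 10.1% of all genes tested, a count that the rule itself raises. DESeq2 called 328 of the opposite genes and 410 genes in all (1.92% of those it gave an adjusted p). With 1 library left out edgeR called between 11 and 323 genes, 323 without the first overexpression library, 93 without the second and 25 without the first DU145 control. The 4 opposite genes past the edgeR threshold were DNAL1, EPDR1, F13A1 and AC105052.

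DNAL1, which encodes a light chain of axonemal dynein (ENSG00000119661, chromosome 14, 73644875 to 73703732, plus strand), had 3.23 and 2.91 CPM in PC3 EphA2 KO, against 20.2 and 18.7 CPM in PC3 control. It had 15.1 and 18.3 CPM in DU145 EphA2 OE, against 3.03 and 3.99 CPM in DU145 control. On the log2 scale the knockout changed by -2.66 (SE 0.21) and the overexpression by 2.25 (SE 0.21), both past the threshold (adjusted p = 0.0238 and 0.0383). No groups within a line overlapped, but the knockout libraries stood near the DU145 controls, and the overexpression libraries near the PC3 controls. The log2 difference of responses was -4.91 (SE 0.30, adjusted p = 0.00434), and 0.030 with the controls exchanged.

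EPDR1, an ependymin-related lysosomal protein, differed mainly in the overexpression. It had 108 and 102 CPM in PC3 EphA2 KO, against 97.2 and 95.2 CPM in PC3 control. It had 32.3 and 31.6 CPM in DU145 EphA2 OE, against 108 and 114 CPM in DU145 control, so that the overexpression libraries lay far below all others. The log2 difference was 1.92 (SE 0.13, adjusted p = 0.00497).

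F13A1, the catalytic A subunit of coagulation factor XIII, had 357 and 361 CPM in PC3 EphA2 KO, against 259 and 242 CPM in PC3 control. It had 233 and 274 CPM in DU145 EphA2 OE, against 492 and 484 CPM in DU145 control. The knockout was above its control and the overexpression below its own without overlap, with a log2 difference of 1.46 (SE 0.14, adjusted p = 0.0334), which was -0.46 with the controls exchanged. Its adjusted p was above 0.05 on leaving out any 1 PC3 or DU145 control or knockout library (0.0512 to 0.104).

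AC105052 (ENSG00000267645), for which no function is given here, overlaps 5 other genes and shares its symbol with another ID, so its counts are uncertain. It had 3.01 and 4.78 CPM in PC3 EphA2 KO, against 27.5 and 24.9 CPM in PC3 control. It had 28.3 and 27.3 CPM in DU145 EphA2 OE, against 20.8 and 22.2 CPM in DU145 control, a log2 difference of -3.12 (SE 0.30, adjusted p = 0.0352). Its adjusted p was 0.0601 to 0.0975 on leaving out any 1 control library.

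CDH1 and EPHA2 held the opposite pattern under both readings of the controls. CDH1 (ENSG00000039068, chromosome 16, 68737292 to 68835537, plus strand) had 209.9 and 199.9 CPM in PC3 EphA2 KO, against 147 and 153 CPM in PC3 control. It had 111 and 101 CPM in DU145 EphA2 OE, against 146 and 139 CPM in DU145 control. The knockout libraries were the highest of the 8 and the overexpression libraries the lowest, with the 4 controls between. Its log2 fold change was 0.45 (SE 0.09) in the knockout and -0.43 (SE 0.09) in the overexpression, and the difference of 0.88 (SE 0.13) had an adjusted p of 0.114 in edgeR. CDH1 overlaps 2 other genes in the table.

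EPHA2 (ENSG00000142627, chromosome 1, 16124337 to 16156069, minus strand), the targeted gene, ran the other way and stayed well expressed in the knockout. It had 204 and 185 CPM in PC3 EphA2 KO, against 265 and 269 CPM in PC3 control. It had 343 and 386 CPM in DU145 EphA2 OE, against 293 and 296 CPM in DU145 control. The knockout libraries were the lowest of the 8 and the overexpression libraries the highest, with a log2 difference of -0.77 (SE 0.13, adjusted p = 0.169). Edited transcripts can persist, so the mRNA gives no measure of remaining protein. Of 9 Eph receptors tested EPHA2 was the only member, and of 8 ephrin ligands none was.

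Further genes that kept their pattern under both readings are described next, chosen after their values were seen, and they stand for no group. CGN encodes cingulin, a scaffold of tight junctions. It had 157 and 151 CPM in PC3 EphA2 KO, against 112 and 109 CPM in PC3 control. It had 90.1 and 101 CPM in DU145 EphA2 OE, against 141 and 117 CPM in DU145 control. As for CDH1, the knockout was above and the overexpression below every control library, with a log2 difference of 0.91 (SE 0.17, adjusted p = 0.191).

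RBM47, an RNA-binding protein that keeps epithelial splicing, showed the same orientation. It had 27.9 and 24.9 CPM in PC3 EphA2 KO, against 23.5 and 22.4 CPM in PC3 control. It had 13.3 and 11.8 CPM in DU145 EphA2 OE, against 13.99 and 16.3 CPM in DU145 control, and here the lines themselves differed more than the altered groups did from their controls. ZEB1, a repressor of CDH1 in epithelial-mesenchymal transition, ran the other way. It had 23.2 and 22.9 CPM in PC3 EphA2 KO, against 31.2 and 25.5 CPM in PC3 control. It had 32.7 and 31.8 CPM in DU145 EphA2 OE, against 25.95 and 25.4 CPM in DU145 control. No knockout library reached any control, and no overexpression library lay within them. The log2 differences were 0.47 (SE 0.21, adjusted p = 0.506) for RBM47 and -0.63 (SE 0.19, adjusted p = 0.375) for ZEB1, and ZEB1 overlaps 3 other genes.

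**Figure D2:**
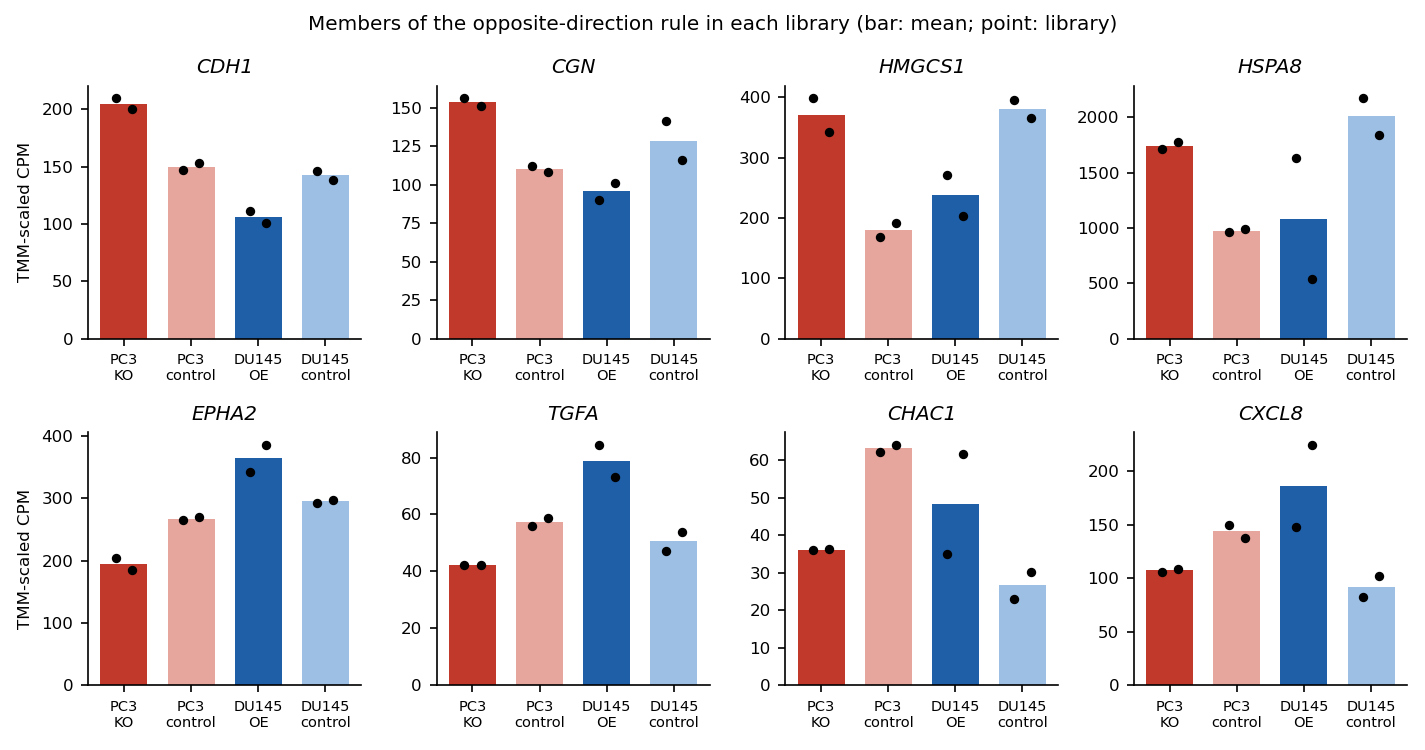
TMM-scaled CPM (y axis) of 8 opposite genes in the 4 groups; bars are means of 2 libraries and points the libraries. The upper row holds genes higher in the knockout and lower in the overexpression, and the lower row genes of the other orientation; CDH1, CGN, EPHA2 and TGFA keep the pattern against all 4 controls.

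TGFA, a ligand of the EGF receptor, had 42.2 and 42.2 CPM in PC3 EphA2 KO, against 56.1 and 58.6 CPM in PC3 control. It had 84.6 and 73.1 CPM in DU145 EphA2 OE, against 47.1 and 53.98 CPM in DU145 control. Every knockout library lay below all 4 controls and every overexpression library above them, with a log2 difference of -1.08 (SE 0.17, adjusted p = 0.115). TGFB2, a ligand of the TGF-beta receptors, was expressed at a lower level. It had 4.05 and 3.01 CPM in PC3 EphA2 KO, against 6.84 and 5.98 CPM in PC3 control. It had 13.3 and 15.1 CPM in DU145 EphA2 OE, against 10.5 and 7.9 CPM in DU145 control, a log2 difference of -1.49 (SE 0.33, adjusted p = 0.263). IL32, an inflammatory cytokine, had 10.6 and 8.85 CPM in PC3 EphA2 KO, against 12.7 and 13.1 CPM in PC3 control. It had 15.7 and 20.4 CPM in DU145 EphA2 OE, against 10.99 and 12.04 CPM in DU145 control, again with all controls between.

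DUSP1 encodes a phosphatase that inactivates p38, JNK and ERK and is induced by them. It had 30.1 and 27.6 CPM in PC3 EphA2 KO, against 45.4 and 46.98 CPM in PC3 control. It had 50.3 and 70.8 CPM in DU145 EphA2 OE, against 37.7 and 36.4 CPM in DU145 control, a log2 difference of -1.39 (SE 0.23, adjusted p = 0.151). MAPK12, a p38 kinase, had 20.3 and 19.7 CPM in PC3 EphA2 KO, against 22.3 and 24.8 CPM in PC3 control. It had 26.1 and 25.9 CPM in DU145 EphA2 OE, against 20.5 and 21.8 CPM in DU145 control. GADD45B, a stress sensor that activates p38 and JNK, had 31.4 and 30.3 CPM in PC3 EphA2 KO, against 33.98 and 37.9 CPM in PC3 control. It had 43.9 and 56.5 CPM in DU145 EphA2 OE, against 34.5 and 41.3 CPM in DU145 control. Gaps between the groups were small for MAPK12 and GADD45B, whose adjusted p were 0.417 and 0.442. The p38 stress kinase list was split, with 3 of 22 genes in each orientation (13.6%), against 5.44% and 5.09% of all genes tested. DUSP1, MAPK12 and RPS6KA5 had that of EPHA2, and TAB1, HSPB1 and RPS6KA4 that of CDH1. IFIT5, an interferon-induced RNA-binding protein, had 11.3 and 10.8 CPM in PC3 EphA2 KO, against 12.7 and 15.8 CPM in PC3 control. It had 17.1 and 25.5 CPM in DU145 EphA2 OE, against 16.4 and 16.3 CPM in DU145 control, with one overexpression library close to its controls. NDUFC2 and NDUFA9, subunits of respiratory complex I, and AC112907, for which no function is given here, kept the CDH1 orientation, with log2 differences of 0.46 (SE 0.14), 0.26 (SE 0.12) and 2.35 (SE 0.38). None of the 144 genes passed the edgeR threshold in the knockout, the overexpression or the difference; 36, 43 and 83 were below an unadjusted p of 0.05, and DESeq2 called 9, 6 and 23. Over all genes tested edgeR called 0.0264% in the knockout and 0.0396% in the overexpression. There 6.62% and 9.06% were below an unadjusted p of 0.05, and DESeq2 called 0.87% and 1.44%. The rule itself raises the counts among the 144.

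Cytosolic heat shock genes, chaperones that fold proteins and are driven by HSF1, held the highest share of genes higher in the knockout and lower in the overexpression. Of 20 tested, 12 had this orientation and 0 the other, against 5.09% and 5.44% of all genes tested. Opposite genes of either orientation were 5.44% of genes tested at 0.3 CPM or less and 23.6% of those above 300 CPM, and list shares are not matched for level. The list's median log2 fold change was 0.13 in the knockout and -0.26 in the overexpression, against 0.00 and 0.01 over all genes. HSPA8, the constitutive HSC70, had 1710.0 and 1773 CPM in PC3 EphA2 KO, against 962 and 987 CPM in PC3 control. It had 1628 and 535 CPM in DU145 EphA2 OE, against 2174 and 1842 CPM in DU145 control. The knockout libraries lay close together. The overexpression libraries did not, and the second was far below its controls. HSPA1A, the inducible HSP70, had 132 and 133 CPM in PC3 EphA2 KO, against 92.96 and 90.3 CPM in PC3 control. It had 119 and 51.5 CPM in DU145 EphA2 OE, against 133 and 144 CPM in DU145 control, with the same split of the overexpression libraries. HSPA1A and its near-identical copy HSPA1B can exchange reads, and HSPA8 overlaps 4 genes, so these counts are uncertain. The other members were HSP90AA1, HSP90AB1, HSPA1B, HSPA4, HSPA6, HSPH1, HSPB1, DNAJA1, BAG3 and AHSA1. None of the 20 passed edgeR in the difference (lowest adjusted p among the 12 = 0.419). Of the 12, 6 were below an unadjusted p of 0.05, and DESeq2 called 0. The rule itself raises such counts among members, here and in the lists below. Of all 2392 opposite genes, 1453 were below an unadjusted p of 0.05 in the difference, and DESeq2 called 328.

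Cholesterol synthesis genes, driven by SREBP2 when membrane sterol is low, showed the same orientation in 13 of 28, and 0 had the other. The list's median log2 fold change was 0.15 in the knockout and -0.37 in the overexpression. HMGCS1, the synthase that makes HMG-CoA, had 399 and 343 CPM in PC3 EphA2 KO, against 168 and 192 CPM in PC3 control. It had 271 and 203 CPM in DU145 EphA2 OE, against 396 and 365 CPM in DU145 control. Both overexpression libraries lay below both controls, and PC3 EphA2 KO stood at the level of DU145 control. The log2 difference was 1.73 (SE 0.22, adjusted p = 0.067), and -0.44 with the controls exchanged. LSS, lanosterol synthase, had 214 and 223 CPM in PC3 EphA2 KO, against 173 and 164 CPM in PC3 control. It had 169 and 120.1 CPM in DU145 EphA2 OE, against 245 and 242 CPM in DU145 control. MVK, mevalonate kinase, had 49.2 and 47.04 CPM in PC3 EphA2 KO, against 35.98 and 36.4 CPM in PC3 control. It had 33.01 and 21.3 CPM in DU145 EphA2 OE, against 48.4 and 46.9 CPM in DU145 control, so that for both enzymes the second overexpression library was the lowest of all. FDPS, MVD, CYP51A1, MSMO1, DHCR7, ACAT2, FASN, STARD4 and INSIG1 were also members. None of the 28 passed edgeR in the difference. All 13 members were below an unadjusted p of 0.05, and DESeq2 called 6 of them. These counts are raised by the rule, with 1453 of all 2392 opposite genes below 0.05 and 328 called by DESeq2.

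The promoters of HSPA8 and HMGCS1 are shown because heat shock and cholesterol genes were the lists with the highest shares, with the motifs that stood in them in capitals. They are the 250 bases before the RefSeq start (GRCh38.p14; chr11:123062137-123062386, minus strand, and chr5:43313413-43313662, minus strand), printed 5′ to 3′ along the gene. Capitals mark the heat shock element pair GAANNTTC in HSPA8 and the CCAAT box, read here as ATTGG on the other strand, in HMGCS1.
HSPA8: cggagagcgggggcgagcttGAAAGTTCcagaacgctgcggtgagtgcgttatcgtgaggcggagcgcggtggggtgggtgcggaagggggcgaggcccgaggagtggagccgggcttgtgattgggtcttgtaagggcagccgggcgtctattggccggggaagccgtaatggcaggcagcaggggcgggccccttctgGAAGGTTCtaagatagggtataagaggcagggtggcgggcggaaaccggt
HMGCS1: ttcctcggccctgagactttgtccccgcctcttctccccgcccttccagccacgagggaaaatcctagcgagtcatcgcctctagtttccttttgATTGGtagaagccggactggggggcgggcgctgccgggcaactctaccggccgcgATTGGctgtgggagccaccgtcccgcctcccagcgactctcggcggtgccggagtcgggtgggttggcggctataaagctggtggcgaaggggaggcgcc
GAANNTTC stood in 6 of the 12 heat shock members' promoters, counted over 250 bases before to 50 after the start on both strands, against 5.0% of 12844 promoters of tested genes. The CCAAT box stood in 9 of the 10 cholesterol members with a promoter, against 35.9%. The sterol regulatory element, searched as TCACNCCAC, stood in 0 of those 10, against 1.13%. No printed match overlapped another motif searched.

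Actin and focal adhesion genes made up the last list with many members of this orientation, 11 of 35, and 0 of the other. ACTB, cytoplasmic beta-actin, had 2809 and 3056 CPM in PC3 EphA2 KO, against 2330.0 and 2019.9 CPM in PC3 control. It had 3033 and 2209.9 CPM in DU145 EphA2 OE, against 3369 and 3249 CPM in DU145 control. PFN1, profilin, which feeds actin monomers to growing filaments, had 1843 and 1912 CPM in PC3 EphA2 KO, against 1410.0 and 1596 CPM in PC3 control. It had 1590.2 and 1479.7 CPM in DU145 EphA2 OE, against 1791 and 1919 CPM in DU145 control. Knockout libraries of both genes lay above their controls, and the overexpression libraries below theirs. ACTN1, ACTN4, MYH9, EZR, MSN, ZYX, ILK, RHOB and RHOC were the others. With the controls exchanged, 0 of the 35 had this orientation and 5 the other, against 880 and 871 of all 22727 genes tested. For heat shock genes these counts were 0 and 0, and for cholesterol genes 2 and 0.

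**Figure D3:**
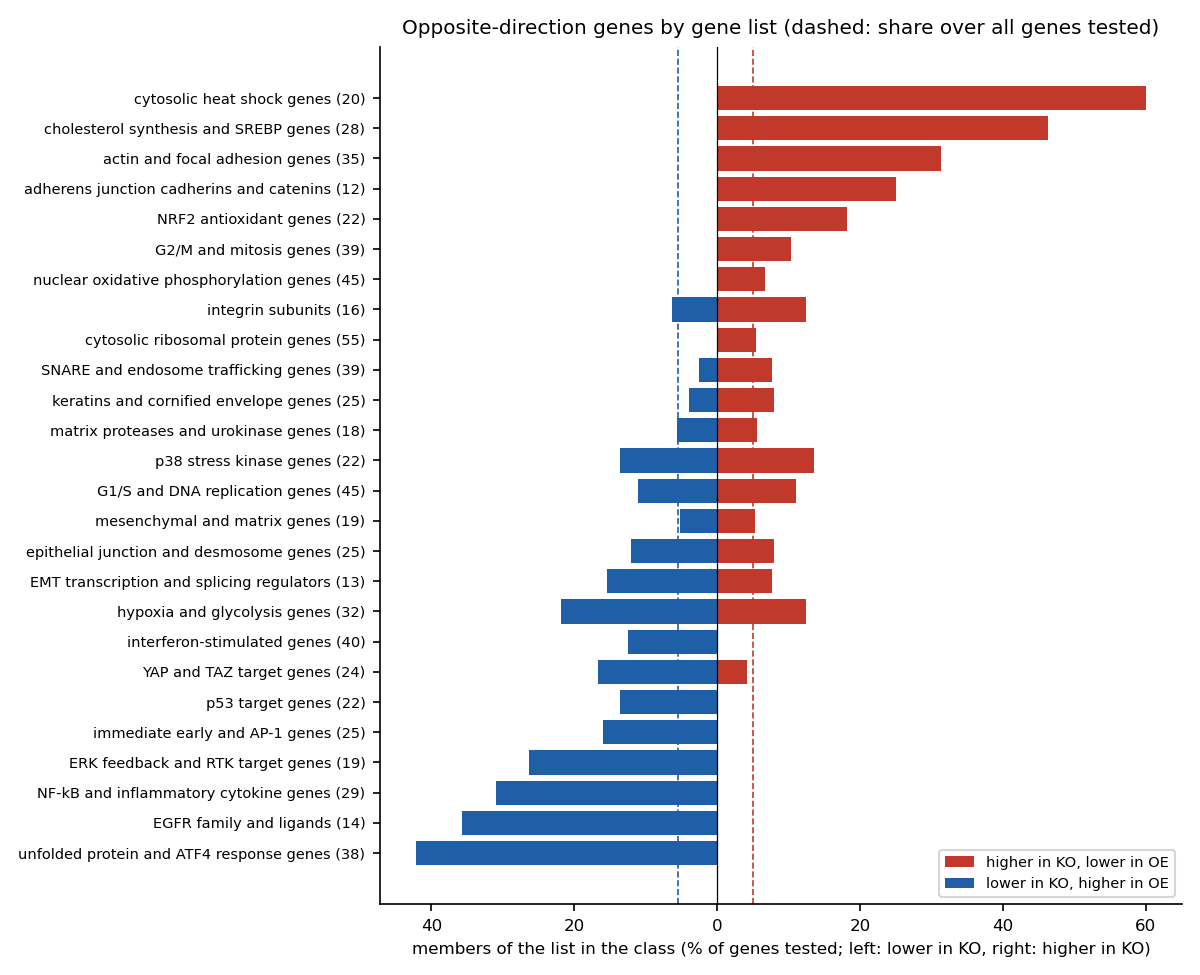
Share of each gene list's tested genes (x axis, percent; number tested in brackets) that were higher in the knockout and lower in the overexpression (right) or the other way round (left), for lists with at least 12 tested genes. Dashed lines give the shares over all genes tested, 5.09% and 5.44%; cytosolic heat shock genes reach 60.0% on the right and unfolded protein and ATF4 response genes 42.1% on the left.

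The ATF4 and unfolded protein response, which arrests translation and supplies amino acids under stress, was the list with the highest share of the EPHA2 orientation. Of its 38 genes tested, 16 were lower in the knockout and higher in the overexpression and 0 the other way round. A further 5 (13.2%) were lower in both altered groups, against 3.16% of all genes tested. All 5 were so under both readings of the controls. The list's median log2 fold change was -0.25 in the knockout and 0.25 in the overexpression. CHAC1, an enzyme that degrades glutathione and a marker of ATF4, had 35.9 and 36.4 CPM in PC3 EphA2 KO, against 62.1 and 64.2 CPM in PC3 control. It had 35.1 and 61.6 CPM in DU145 EphA2 OE, against 23.1 and 30.1 CPM in DU145 control. The PC3 controls were at the level of the second overexpression library, and the knockout at that of the first. SESN2, a leucine sensor that restrains mTORC1, had 30.2 and 29.3 CPM in PC3 EphA2 KO, against 52.5 and 57.2 CPM in PC3 control. It had 37.04 and 71.8 CPM in DU145 EphA2 OE, against 24.9 and 28.3 CPM in DU145 control. CTH, which makes cysteine from cystathionine, had 6.58 and 7.7 CPM in PC3 EphA2 KO, against 15.05 and 15.5 CPM in PC3 control. It had 9.22 and 21.6 CPM in DU145 EphA2 OE, against 5.83 and 6 CPM in DU145 control, and in both the second overexpression library stood far above the first. DDIT3 encodes CHOP, a transcription factor of prolonged stress, and overlaps 4 genes. It had 20.2 and 21.8 CPM in PC3 EphA2 KO, against 41.7 and 30.5 CPM in PC3 control. It had 24.7 and 43.7 CPM in DU145 EphA2 OE, against 20.7 and 17.3 CPM in DU145 control. ASNS, PSAT1, PHGDH, MTHFD2, SLC7A5, SLC7A1, SLC3A2, TRIB3, STC2, PPP1R15A, DDIT4 and ATF6 were the other members. None passed edgeR in the difference (lowest adjusted p = 0.229). Of the 16, 15 were below an unadjusted p of 0.05, and DESeq2 called 11. These counts are raised by the rule, with 1453 of all 2392 opposite genes below 0.05 and 328 called by DESeq2.

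NF-kB and inflammatory cytokine genes had the EPHA2 orientation in 9 of 29, and 0 had the other. The list's median log2 fold change was -0.03 in the knockout and 0.62 in the overexpression. CXCL8, the neutrophil chemokine interleukin 8, had 106 and 109 CPM in PC3 EphA2 KO, against 150.0 and 138 CPM in PC3 control. It had 148 and 225 CPM in DU145 EphA2 OE, against 82.6 and 102 CPM in DU145 control. CXCL2, another neutrophil chemokine, had 25.5 and 33.1 CPM in PC3 EphA2 KO, against 40.3 and 39.1 CPM in PC3 control. It had 45.8 and 82.4 CPM in DU145 EphA2 OE, against 28.2 and 33.1 CPM in DU145 control. BIRC3, an inhibitor of apoptosis downstream of TNF receptors, had 59.2 and 57.6 CPM in PC3 EphA2 KO, against 76.9 and 73.6 CPM in PC3 control. It had 70.1 and 128 CPM in DU145 EphA2 OE, against 57.2 and 62.9 CPM in DU145 control. In all 3 the second overexpression library was the highest of the 8. The remaining members were IL32, NFKB2, NFKBIA, TNFAIP3, ICAM1 and IER3, the lowest adjusted edgeR p among the 9 in the difference was 0.0554, and DESeq2 called 5.

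The promoters of CHAC1 and CXCL8 are shown as leading genes of these lists, with the CARE element TGATGNAA, which ATF4 binds, in CHAC1 and the AP-1 site TGANTCA in CXCL8 in capitals. They are the 250 bases before the RefSeq start (GRCh38.p14; chr15:40953221-40953470, plus strand, and chr4:73740319-73740568, plus strand), printed 5′ to 3′; the match in CHAC1 is on the other strand.
CHAC1: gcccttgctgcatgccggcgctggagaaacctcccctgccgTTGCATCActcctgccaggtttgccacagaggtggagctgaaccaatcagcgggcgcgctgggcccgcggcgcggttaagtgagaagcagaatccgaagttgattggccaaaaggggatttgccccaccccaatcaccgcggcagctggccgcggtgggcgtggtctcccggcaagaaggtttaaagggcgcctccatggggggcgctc
CXCL8: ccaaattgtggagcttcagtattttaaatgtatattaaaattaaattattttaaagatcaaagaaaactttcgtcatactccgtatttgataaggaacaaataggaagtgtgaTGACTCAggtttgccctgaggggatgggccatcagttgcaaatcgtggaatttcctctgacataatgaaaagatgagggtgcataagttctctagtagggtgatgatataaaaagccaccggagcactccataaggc
TGATGNAA stood in 4 of 16 promoters of the ATF4 members, against 1.88% of all tested promoters. TGANTCA stood in 1 of 8 promoters of the NF-kB members, against 5.09%. The NF-kB site, searched in a loose form, stood in 8 of those 8, and in 72.4% of all promoters.

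Among the EGFR family and its ligands 5 of 14 had the EPHA2 orientation and 0 had the other orientation, and the list's median log2 fold change was -0.21 (knockout) and 0.24 (overexpression). EREG, epiregulin, had 203 and 202 CPM in PC3 EphA2 KO, against 256 and 252 CPM in PC3 control. It had 246 and 279.9 CPM in DU145 EphA2 OE, against 150.0 and 160.0 CPM in DU145 control. The groups did not overlap, and the log2 difference of -1.09 (SE 0.13) had an adjusted p of 0.0554, and was 0.33 with the controls exchanged. ERBB3, a receptor for neuregulins, had 21.3 and 19.9 CPM in PC3 EphA2 KO, against 27.9 and 29.3 CPM in PC3 control. It had 18.5 and 28.7 CPM in DU145 EphA2 OE, against 16.8 and 14.9 CPM in DU145 control. AREG, TGFA and ERRFI1, an inhibitor of the EGF receptor, were the other members.

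Feedback genes of ERK signalling had this orientation in 5 of 19, and 0 had the other. DUSP5, a nuclear phosphatase that inactivates ERK, had 74.1 and 72.6 CPM in PC3 EphA2 KO, against 113 and 108 CPM in PC3 control. It had 119.9 and 171 CPM in DU145 EphA2 OE, against 72.4 and 75.8 CPM in DU145 control. DUSP4, a related phosphatase, had 13.5 and 9.86 CPM in PC3 EphA2 KO, against 17.6 and 14.4 CPM in PC3 control. It had 29.4 and 27.8 CPM in DU145 EphA2 OE, against 7.67 and 11.6 CPM in DU145 control. The overexpression libraries were the highest of the 8 in both genes, and the knockout libraries of DUSP5 lay level with the DU145 controls. Log2 differences were -1.56 (SE 0.22, adjusted p = 0.11) and -2.03 (SE 0.35, adjusted p = 0.168). ETV5, SPRED2 and IER3 were the others. Of immediate early and AP-1 genes, 4 of 25 had the EPHA2 orientation (DUSP1, IER3, BTG2 and JUNB) and 0 the other.

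Interferon-stimulated genes, which respond to viral nucleic acid and to interferon, moved the same way in both lines more often than oppositely. Of 40 tested, 5 had the EPHA2 orientation, 0 the CDH1 orientation, and 11 were higher in both altered groups. Of YAP and TAZ targets, which follow cell spreading and tension, 4 of 24 had the EPHA2 orientation (TGFB2, GADD45B, F3 and NUAK2) and 1 the other (AXL). With the controls exchanged, 871 of all 22727 genes tested had the EPHA2 orientation. Among them were 2 of the 38 ATF4 genes, 1 of the 29 NF-kB genes and 2 of the 14 EGFR genes. So were 1 of the 19 ERK genes, 5 of the 25 immediate early genes, 3 of the 40 interferon genes and 10 of the 24 YAP genes. These need not be the genes found in the main reading, and 2 of the 24 YAP genes had the orientation under both. Under both readings a gene's orientation held for 0 of 20 heat shock genes, 1 of 28 cholesterol genes, 0 of 35 actin genes, 1 of 38 ATF4 genes, 1 of 29 NF-kB genes and 1 of 14 EGFR genes.

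The overexpression libraries stood further from each other than the libraries of any other group. Their median absolute log2 difference was 0.19, against 0.09 to 0.12 in the other groups (8261 genes at 20 CPM or more). Among the 12 heat shock members the median of log2(CPM + 0.05), centred on the mean of the 8 libraries, was 0.06 and -0.50 in DU145 EphA2 OE, against 0.16 and 0.22 in DU145 control. Among the 16 ATF4 members it was -0.06 and 0.72 in DU145 EphA2 OE, against -0.39 and -0.44 in DU145 control. The part of this in the list counts was not tested.

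**Figure D4:**
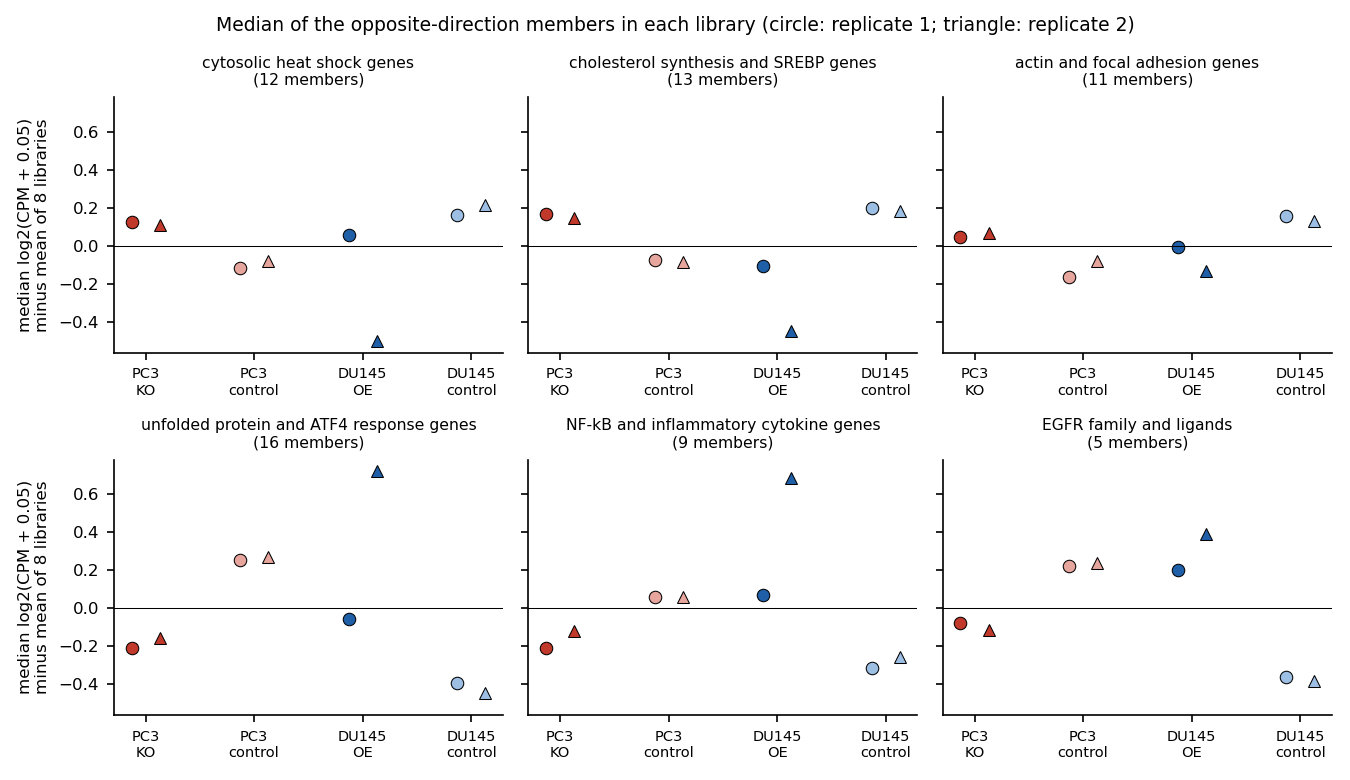
Median over the opposite members of 6 lists of log2(CPM + 0.05) minus the gene's mean over 8 libraries (y axis) in each library, circles for replicate 1 and triangles for replicate 2. In the heat shock panel the overexpression libraries stand at 0.06 and -0.50, and in the ATF4 panel at -0.06 and 0.72, further apart than replicates of any other group.

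Opposite adherens junction genes all had the CDH1 orientation, and other lists close to CDH1 in function held few members of both. Of 12 adherens junction genes tested, CDH1, CTNNA1 and NECTIN1 were higher in the knockout and lower in the overexpression and 0 the other way round. The list's median log2 fold change was -0.03 in the knockout and -0.11 in the overexpression. In the knockout 6 of the 12 were lower, so the list as a whole did not follow CDH1 there. Of its members only CDH1 kept the orientation under both readings of the controls. CTNNA1 had 477 and 462 CPM in PC3 EphA2 KO, against 420.1 and 377 CPM in PC3 control. It had 420.1 and 387 CPM in DU145 EphA2 OE, against 462 and 489.6 CPM in DU145 control, a log2 difference of 0.47 (SE 0.13, adjusted p = 0.337). NECTIN1, a nectin of the same junctions, had a log2 difference of 0.35 (SE 0.17, adjusted p = 0.526). Of 25 genes of other epithelial junctions, CGN and PKP2 had the CDH1 orientation and DSP, DSG2 and SPINT1 the other. DSP, desmoplakin of desmosomes, had 169 and 162 CPM in PC3 EphA2 KO, against 176 and 184 CPM in PC3 control. It had 179.9 and 184 CPM in DU145 EphA2 OE, against 163 and 145 CPM in DU145 control. Of 13 regulators of epithelial-mesenchymal transition, RBM47 had the CDH1 orientation and ZEB1 and ELF3 the other.

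Keratins, the intermediate filaments of epithelia, held both orientations at shares near those of all genes tested (5.09% and 5.44%). KRT18 and KRT8 had the CDH1 orientation (8.0%) and KRT7 the other (4.0%), out of 25 genes of the list. KRT18 had 451 and 469.5 CPM in PC3 EphA2 KO, against 384 and 409 CPM in PC3 control. It had 436 and 363 CPM in DU145 EphA2 OE, against 486 and 518 CPM in DU145 control. KRT7 had 405 and 357 CPM in PC3 EphA2 KO, against 506 and 510.5 CPM in PC3 control. It had 450.2 and 715 CPM in DU145 EphA2 OE, against 321 and 383 CPM in DU145 control. With the controls exchanged, 16 of the 25 were lower in the knockout and higher in the overexpression, against 871 of all 22727 genes tested. Each altered group was then set against controls read as the other line. MMP14, a membrane protease that cleaves collagen, had the CDH1 orientation. It had 818 and 789.7 CPM in PC3 EphA2 KO, against 572 and 566 CPM in PC3 control. It had 659 and 692 CPM in DU145 EphA2 OE, against 796 and 768 CPM in DU145 control. No groups of a line overlapped, and the log2 difference was 0.71 (SE 0.10, adjusted p = 0.111), and -0.21 with the controls exchanged.

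The members with the largest folds in both lines were mostly of low level. Among the top 10 of each orientation at a mean of at least 1 CPM, ranked by the smaller of their log2 fold changes, DNAL1, EMP1, BCL2L11 and AL121594 reached 10 CPM. EMP1, an epithelial membrane protein, had 8.89 and 37.2 CPM in PC3 EphA2 KO, against 6.84 and 6.68 CPM in PC3 control. It had 7.31 and 12.7 CPM in DU145 EphA2 OE, against 42.2 and 42.2 CPM in DU145 control, and the knockout replicates differed 4-fold. BCL2L11, which encodes the cell death protein BIM, had 40.6 and 38.1 CPM in PC3 EphA2 KO, against 10.4 and 28.7 CPM in PC3 control. It had 7.32 and 8.76 CPM in DU145 EphA2 OE, against 39.5 and 32.7 CPM in DU145 control, with a control library of PC3 well below the other. In 270 of the 2392 genes the smaller log2 fold change was at least 1. That held for 223 of the 1423 same-direction genes and for 1435 of all 22727 genes tested. Its median was 0.28 in opposite genes, against 0.27 in same-direction genes. Coding genes made up 74.7% of the opposite genes, against 65.2% of all genes tested, and the median level was 19.997 CPM against 6.54 CPM. Overlapping genes shared in the pattern, with 88 overlapping pairs of members, 57 of the same orientation and 31 of opposite ones, and reads assigned to one gene of a pair can come from the other. At the edge of the rule, BAP1 and IDH3B lay inside by less than 0.001 on the log2 scale, and CCDC85C and ISY1-RAB43 just outside.

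Opposite genes were not spread evenly along the genome. On chromosome 18 beyond 40 Mb, 21 of 62 genes with a mean of at least 10 CPM (33.9%) were lower in the knockout and higher in the overexpression and 0 the other way round, against 6.46% and 7.49% of 10376 such genes. In all, 60 of the 62 were lower in the knockout and 52 higher in the overexpression, with median log2 fold changes of -0.41 and 0.22. Centred on the 8 libraries, the block's median log2 level was 0.26 and 0.004 in DU145 EphA2 OE, against -0.08 and -0.03 in DU145 control. The rise in the overexpression was thus mostly in its first library. The 4 genes named here were chosen after their values were seen. EPG5, which tethers autophagosomes, had 39.6 and 41.9 CPM in PC3 EphA2 KO, against 62.8 and 71.4 CPM in PC3 control. It had 74.6 and 69.4 CPM in DU145 EphA2 OE, against 64.7 and 52.3 CPM in DU145 control. NARS1, an asparaginyl-tRNA synthetase, had 149 and 155 CPM in PC3 EphA2 KO, against 202 and 195 CPM in PC3 control. It had 207 and 208 CPM in DU145 EphA2 OE, against 150.4 and 152 CPM in DU145 control. PMAIP1, the cell death protein NOXA, had 30.00 and 32.02 CPM in PC3 EphA2 KO, against 47.9 and 42.4 CPM in PC3 control. It had 40.4 and 40.7 CPM in DU145 EphA2 OE, against 28.7 and 30.2 CPM in DU145 control. NEDD4L, a ubiquitin ligase, had 108 and 106 CPM in PC3 EphA2 KO, against 136 and 135 CPM in PC3 control. It had 146 and 159 CPM in DU145 EphA2 OE, against 126 and 126 CPM in DU145 control, the 1 gene of the block that kept the pattern under both readings. In these genes no groups of a line overlapped. With the controls exchanged 2 of the 62 had the orientation, against 479 of the 10376 genes.

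On chromosome 5 beyond 50 Mb, 83 of 409 genes (20.3%) were higher in the knockout and lower in the overexpression and 8 the other way round, with medians of 0.10 and -0.09. The centred median there was -0.08 and 0.04 in DU145 EphA2 OE, against 0.05 and 0.07 in DU145 control. The fall in the overexpression was thus also mostly in its first library. With the controls exchanged the counts there were 9 and 28, against 419 and 479 of all 10376 genes with a mean of at least 10 CPM. Of 280 windows of 10 Mb with at least 10 genes, 6 had a median log2 difference of responses of 0.3 or more in size, 4 of them on chromosome 18 and 2 on chromosome 5, and 195 were below 0.1. Without chromosomes 5, 14, 18 and 21 the counts were 2056 opposite and 1275 same-direction genes, a share of 61.7%. Why these regions moved was not tested.

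**Figure D5:**
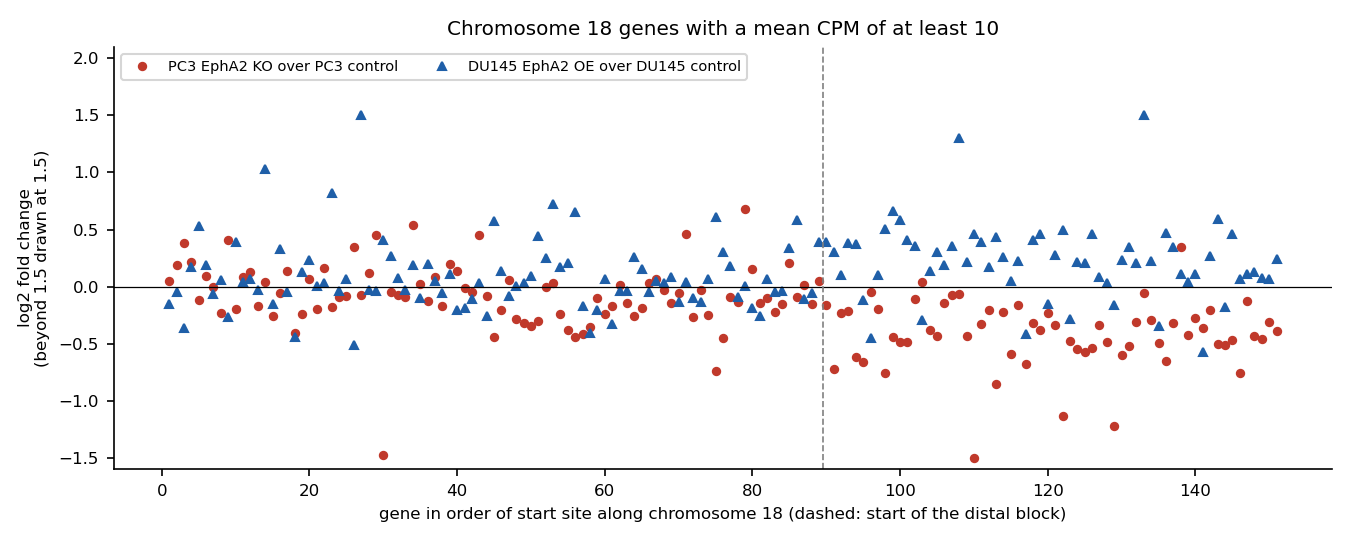
Log2 fold change (y axis) of chromosome 18 genes with a mean of at least 10 CPM, in gene order (x axis), in the knockout (circles) and the overexpression (triangles); values beyond 1.5 are drawn at 1.5. Right of the dashed line, where the 62 distal genes begin, 60 lie below 0 in the knockout and 52 above 0 in the overexpression.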

How the data were processed

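RNA was poly(A)-selected and sequenced from strand-marked paired-end libraries, per the labels' protocols. The authors deposited whole-number counts and FPKM per gene. The submitters' processing notes name build GRCh38 and StringTie 2.1.6, HISAT2 2.2.1, cutadapt 1.9, edgeR and DESeq2. The annotation and any use of strand in counting were not given in the sources used here, so overlapping genes may share reads. The FPKM deposited by the authors served only as an alternative scaling.

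Counts were fitted with edgeR 4.0.16 (R 4.3.3): filterByExpr with a minimum count of 10 and a total of 15, TMM, quasi-likelihood tests of the knockout, the overexpression and their difference over 8 libraries in 4 groups, and Benjamini-Hochberg adjustment over all 22727 genes at 0.05. CPM values are TMM-scaled, and log2 values of single libraries used a pseudocount of 0.05 CPM. DESeq2 1.42.0 and limma-voom (limma 3.58.1) were alternatives. Depth was 57571919 to 60951530 counts per library, so the 2 libraries per group limit precision more than counting does. The count columns named NC were read as PC3 control and those named Vector as DU145 control.

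Named were CDH1, EPHA2, genes past the threshold in the difference, the top 10 opposite genes per orientation at 1 CPM or more, the top 3 same-direction genes per direction, and up to 4 per list. EPHA2-orientation and CDH1-orientation genes named for holding under both readings of the controls (CGN, RBM47, ZEB1, TGFB2, TGFA, IL32, MAPK12, GADD45B, NDUFC2, NDUFA9, IFIT5, DUSP1), and the heat shock and sterol motifs, were chosen after their values were seen. Members and all 31 lists were chosen with earlier results of these data known. Promoters came from RefSeq (GRCh38.p14), which matched 1537 of 2392 members. A few genes are not reported here.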

Additional observations from a re-analysis of the deposited data

Results flagged for a closer look

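In 7 genes the knockout and overexpression responses differed by edgeR's test of the difference at an adjusted p below 0.05, and 4 of these had opposite responses by the library rule. DNAL1 (log2 difference -4.91) and AC105052 (-3.12) were lower in the knockout and higher in the overexpression. EPDR1 (1.92) and F13A1 (1.46) were higher in the knockout and lower in the overexpression. The other 3 did not meet the rule.

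UHMK1, a kinase that phosphorylates splicing factors, differed by 1.83 (SE 0.11, adjusted p = 0.00434) and was lower in both altered groups. It had 327 and 314 CPM in PC3 EphA2 KO, against 377 and 374 CPM in PC3 control. It had 86.4 and 90.4 CPM in DU145 EphA2 OE, against 364 and 371 CPM in DU145 control. LASP1, which binds actin and zyxin, differed by -1.75 (SE 0.14, adjusted p = 0.0163) and was higher in both. It had 541 and 546 CPM in PC3 EphA2 KO, against 482 and 517 CPM in PC3 control. It had 557 and 492 CPM in DU145 EphA2 OE, against 152 and 134 CPM in DU145 control. STX6, a syntaxin of Golgi and endosome traffic, differed by 1.61 (SE 0.14, adjusted p = 0.027). It had 90.2 and 86.5 CPM in PC3 EphA2 KO, against 28.05 and 30.4 CPM in PC3 control. It had 76.5 and 85.4 CPM in DU145 EphA2 OE, against 80.4 and 82.7 CPM in DU145 control.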

How the results depend on the processing

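Opposite genes exceeded same-direction genes under every alternative that asks the same of both. Requiring both readings of the controls, chosen after seeing the data, gave 144 opposite and 754 same-direction genes (16.0%), which cannot be compared because it asks more of an opposite gene. Exchanging the controls gave a share of 53.6%. A mean of at least 1 CPM gave 64.7%, at least 20 CPM 1196 against 605 (66.4%), a gap between groups of at least 0.1 (log2) 1092 against 601 (64.5%) and of 0.25 445 against 267. Leaving out 1 library gave 3492 to 4508 opposite and 2449 to 2992 same-direction genes and shares of 56.0% to 61.2%. Both counts can only rise then, because the rule is easier to meet with 1 library fewer. Genes past the edgeR threshold numbered 7 in the difference, 6 in the knockout and 9 in the overexpression. In the difference the count was 19 at 1 CPM, 410 by DESeq2, 25 by limma-voom and 16 with the controls exchanged. In the knockout it was 190 by DESeq2, 10 by limma-voom and 13 with the controls exchanged, and in the overexpression 309 by DESeq2 and 4 with no filter. Leaving out 1 library gave 11 to 323 in the difference, 6 to 27 in the knockout and 3 to 376 in the overexpression, where the extremes of 323 and 376 came without the first overexpression library. The cause was not tested.

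Within the lines as read, replicate numbers did not pair the samples. Over 8261 genes, deviations of same-numbered libraries correlated at -0.017 between the PC3 groups and -0.023 between the DU145 groups. All pairs of groups ran from -0.041 to 0.174. The highest were 0.174 between PC3 EphA2 KO and DU145 control, and 0.154 between PC3 control and DU145 EphA2 OE. Those are the pairs of the exchanged reading, and the reason was not tested. With the replicate number as a block the counts were 3 in the difference, 0 in the knockout (1504 at an unadjusted p below 0.05 without the block, and 190 by DESeq2) and 3 in the overexpression.

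Among 53 named genes, the log2 difference kept its direction and side of the threshold with DESeq2 size factors and with no filter. With the controls exchanged it changed sign in 20, with values of 0.030 for DNAL1, 1.85 for LASP1, -1.35 for STX6, -0.46 for F13A1, -0.037 for CTNNA1, 0.085 for DSP, -0.14 for KRT18, -0.21 for MMP14, -0.36 for HSPA8, -0.44 for HMGCS1, 0.83 for CHAC1, 0.17 for SESN2, 0.26 for CTH, 0.22 for DDIT3, 0.33 for EREG, 0.65 for ERBB3, -0.44 for ACTB, -0.013 for PFN1, -1.43 for EMP1 and 0.23 for PMAIP1. With 2 libraries a group, small differences are not detectable at this replication.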

Other observations

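Hypoxia and glycolysis genes divided between the orientations. Of 32 tested, 7 were lower in the knockout and higher in the overexpression (ADM, NDRG1, BNIP3L, PDK1, EGLN1, P4HA1 and HK2) and 4 the other way round. Those 4 were PFKL, GAPDH, ENO1 and LDHA. Their log2 fold changes were 0.15 to 0.17 in the knockout and -0.27 to -0.11 in the overexpression. None of the 11 passed edgeR in the difference, 10 were below an unadjusted p of 0.05, and DESeq2 called 1. These counts are raised by the rule, with 1453 of all 2392 opposite genes below 0.05 and 328 called by DESeq2.

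NRF2 antioxidant genes had the CDH1 orientation in 4 of 22 (HMOX1, AKR1C2, AKR1C3 and OSGIN1) and the other in 0. Targets of p53 had the EPHA2 orientation in 3 of 22 (SESN2, TNFRSF10B and BTG2) and the other in 0. Mitosis genes had the CDH1 orientation in 4 of 39 (CCNB1, CDC20, KIF20A and KIF23) and the other in 0. More of them, 5 of 39 (12.8%), were lower in both altered groups, against 3.16% of all genes tested. DNA replication genes were split 5 and 5 of 45. Cytosolic ribosomal proteins, 3 of 55, and nuclear oxidative phosphorylation genes, 3 of 45, had the CDH1 orientation at about the share of all genes tested. Without the first DU145 control library these counts were 20 of 55 and 14 of 45, and 1920 of all genes tested. Ribosomal genes higher in both altered groups numbered 7 of 55, and 37 without the second DU145 control library. Over all genes tested these counts were 705 and 1354. Leaving out a library can only raise them.

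GPD1L, a glycerol-3-phosphate dehydrogenase-like protein, was among the 3 genes with the largest folds that were lower in both altered groups. It had 8.11 and 7.93 CPM in PC3 EphA2 KO, against 24.7 and 31.6 CPM in PC3 control. It had 7.94 and 5.88 CPM in DU145 EphA2 OE, against 28.3 and 28.4 CPM in DU145 control.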
